A study of Mus musculus with 3 samples.

Results

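The 8 genes described are receptors that restrain or costimulate T cells: Pdcd1, Lag3, Havcr2, Tigit, Ctla4, Tnfrsf4, Tnfrsf18 and Tnfrsf9. They were chosen by name, and all 8 of 8 were found among the 31053 genes of the RNA table. The study was a CITE-seq experiment, which reads RNA and antibody-bound DNA tags from the same droplets. Both groups were female C57Bl/6 mice aged 2 to 3 months. The naive group had no brain tumours. The metastasis group was taken about 2 weeks after carotid injection of E0771, a mouse mammary carcinoma line, so a single transplanted line and a single route were modelled. Brains were dissociated with papain, Percoll-enriched for mononuclear cells, stained with 6 surface antibodies, each given a hashing antibody, and run as a single pool. The files hold 4 hashing antibodies, of which 2 mark the naive and 2 the metastasis group, and nothing else says that these were separate animals or days. P-values therefore measure at most the spread between these suspensions. In the CD4 tag fit and the interaction test, which join clusters 2 and 8, they also take in the spread between clusters of a suspension.

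T cells receive a first signal through the antigen receptor and its CD3 complex, and other surface receptors raise or lower the response. PD-1 (Pdcd1), LAG-3 (Lag3), TIM-3 (Havcr2), TIGIT (Tigit) and CTLA-4 (Ctla4) restrain T cells, and several of them are targets of checkpoint antibodies in cancer. OX40 (Tnfrsf4), GITR (Tnfrsf18) and 4-1BB (Tnfrsf9) are members of the tumour necrosis factor receptor superfamily that costimulate activated T cells, and regulatory T cells are known for high CTLA-4, OX40 and GITR. Some of these genes are also active outside T cells: TIM-3 is made by macrophages and dendritic cells, and LAG-3 RNA is found in microglia.

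Of the 12421 cells, 493 held at least 1 UMI (a counted RNA molecule) of the CD3 genes Cd3d, Cd3g or Trac. They were 21 cells of naive 1, 11 of naive 2, 202 of metastasis 1 and 259 of metastasis 2. Total depth ran from 694223 UMIs in naive 2 to 57620835 in metastasis 2, and no barcode was shared between brains. The 13 deposited clusters carry numbers only. Clusters 0, 1, 3, 4 and 5 are called tumour-like here as a working name; with metastases they held 8306 cells and 90.1% of all UMIs. The epithelial keratin gene Krt8 does not set them apart, since it stood at 432 and 656 CPM in cluster 0 and at 445 and 664 CPM in cluster 11 of the brains with metastases. Cluster 2 held monocyte and macrophage markers, cluster 8 the highest level of the CD3 genes, and cluster 12 microglia markers. Clusters 2, 8 and 12 were the immune clusters by Ptprc, the gene of CD45. Against their labels, 102 cells assigned to naive brains lay in the tumour-like clusters. A further 15 naive cells lay in cluster 2, which their label does not exclude. Called doublets were rare (220 cells, 1.77%) and were kept in the values below.

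The start-site regions of the receptors that the results turn on are shown first, because Tnfrsf4, Tnfrsf18 and Ctla4 were higher in the same cells and Tnfrsf9 RNA was present in nearly every cluster. They are RefSeq sequences of GRCm38.p6 (mm10), from 250 bases before to 50 after an annotated start, on the plus strand, at chr1:60908775-60909074 for Ctla4, chr4:156013445-156013744 for Tnfrsf4, chr4:156026072-156026371 for Tnfrsf18 and chr4:150927749-150928048 for one of the Tnfrsf9 starts. Capitals mark matches, on either strand, to TGANTCA (AP-1), GGAAA (the core of NFAT sites) and GGG and CC with any 5 bases between (NF-kB).
Ctla4: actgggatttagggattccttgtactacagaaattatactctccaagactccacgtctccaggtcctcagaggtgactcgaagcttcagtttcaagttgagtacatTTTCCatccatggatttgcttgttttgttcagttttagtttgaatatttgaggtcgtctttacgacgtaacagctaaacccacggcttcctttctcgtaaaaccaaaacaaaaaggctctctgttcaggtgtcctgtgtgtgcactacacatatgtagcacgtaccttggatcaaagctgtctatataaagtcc
Tnfrsf4: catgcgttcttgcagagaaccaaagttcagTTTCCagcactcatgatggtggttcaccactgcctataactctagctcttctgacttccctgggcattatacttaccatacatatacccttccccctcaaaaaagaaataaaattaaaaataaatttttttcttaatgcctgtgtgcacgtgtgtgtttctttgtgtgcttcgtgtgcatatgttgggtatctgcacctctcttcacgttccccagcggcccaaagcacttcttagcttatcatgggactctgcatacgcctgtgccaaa
Tnfrsf18: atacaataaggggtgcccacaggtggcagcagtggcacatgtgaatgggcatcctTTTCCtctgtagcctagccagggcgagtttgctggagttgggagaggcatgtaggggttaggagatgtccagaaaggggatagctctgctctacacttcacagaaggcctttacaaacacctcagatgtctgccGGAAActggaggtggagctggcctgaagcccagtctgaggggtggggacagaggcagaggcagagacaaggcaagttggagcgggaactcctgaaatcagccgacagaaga
Tnfrsf9: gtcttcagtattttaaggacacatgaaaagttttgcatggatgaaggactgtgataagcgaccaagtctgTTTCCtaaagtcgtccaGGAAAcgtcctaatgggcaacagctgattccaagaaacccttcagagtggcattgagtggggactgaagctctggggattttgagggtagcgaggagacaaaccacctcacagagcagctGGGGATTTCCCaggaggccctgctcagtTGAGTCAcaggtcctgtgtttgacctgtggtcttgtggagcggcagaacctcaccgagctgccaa
The Ctla4 and Tnfrsf4 windows held 1 NFAT match each and the Tnfrsf18 window 2. The Tnfrsf9 window held 1 AP-1 match, 3 NFAT matches and 2 NF-kB matches, which overlap each other and an NFAT match. The window at the other Tnfrsf9 start, chr4:150919905-150920204, which is the start of the annotated gene and is not printed, held 2 NFAT matches and no AP-1 or NF-kB match. Of 32851 RefSeq windows of this length, 7.81% held an AP-1 match, 61.3% an NFAT match and 50.8% an NF-kB match, so only the first of these words is uncommon, and a match describes letters and not a bound site.

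In GRCm38.p6 the 8 receptor genes lie on chromosomes 1 (Ctla4, 60909025 to 60915832, and Pdcd1, 94038305 to 94052553), 4 (Tnfrsf9, 150920155 to 150946104, Tnfrsf4, 156013595 to 156016613, and Tnfrsf18, 156026322 to 156028894), 6 (Lag3, 124904359 to 124912434), 11 (Havcr2, 46454931 to 46481255) and 16 (Tigit, 43626137 to 43665125). Tnfrsf4 and Tnfrsf18 are 9708 bases apart. Tnfrsf18 lies inside the annotated long noncoding RNA Gm16008, Tigit overlaps Zbtb20 over 8256 bases and Tnfrsf4 overlaps Sdf4 over 16 bases. How the authors' counting treated strand and such overlaps is not given in the sources used here, so the Tigit count is the least certain of the 8. Gm16008 held 9 UMIs in the whole table and none in clusters 2 and 8 of the brains with metastases.

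Pdcd1, which encodes PD-1, was found mostly in the 2 clusters that held immune cells of the tumour-bearing brains. Its UMI totals were 1 in naive 1, 0 in naive 2, 9 in metastasis 1 and 26 in metastasis 2. Clusters 2 and 8 held 80.0% of the 35 Pdcd1 UMIs with metastases, against 4.53% of all UMIs. The Pdcd1 level in cluster 8 was 9.18 CPM (UMIs per 1000000 UMIs of the cluster) in metastasis 1, with a 95% Poisson interval of 2.50 to 23.5, and 16.9 CPM in metastasis 2, with an interval of 6.81 to 34.9. In cluster 2 it was 2.62 and 5.65 CPM, and these intervals, which cover counting error only, overlap those of cluster 8.

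Lag3 was spread over 3 immune clusters. It had 41 UMIs in naive 1, 32 in naive 2, 61 in metastasis 1 and 70 in metastasis 2. Of the 73 naive UMIs, 87.7% lay in the microglial cluster 12, while with metastases clusters 2 and 8 held 59.5% of 131 UMIs and cluster 12 held 5.34%. With metastases the Lag3 level was 15.1 and 13.9 CPM in cluster 2 and 29.8 and 24.2 CPM in cluster 8.

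With metastases most Havcr2 UMIs lay in cluster 2. The gene had 8 UMIs in naive 1, 4 in naive 2, 66 in metastasis 1 and 103 in metastasis 2, and clusters 2 and 8 held 87.0% of the UMIs with metastases. The level in cluster 2 was 35.4 CPM in metastasis 1 and 38.2 CPM in metastasis 2, and in cluster 8 it was 4.59 and 7.26 CPM. The intervals of cluster 2 (26.6 to 46.1 and 30.7 to 47.1) lay above those of cluster 8 (0.556 to 16.6 and 1.5 to 21.2) in both brains. In naive brains 58.3% of the 12 Havcr2 UMIs lay in cluster 12, at 46.3 and 24.3 CPM.

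Tigit was close to absent at this depth. It had 0 UMIs in both naive brains, 6 in metastasis 1 and 19 in metastasis 2, and 84.0% of these 25 lay in the tumour-like clusters, which held 90.1% of all UMIs. Only 4 Tigit UMIs were in clusters 2 and 8, of which 3 lay in cells with CD3 UMIs.

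Ctla4, Tnfrsf4 and Tnfrsf18 had a higher level in cluster 8 than in cluster 2 in both brains. Ctla4 had 3 UMIs in naive 1, 1 in naive 2, 36 in metastasis 1 and 64 in metastasis 2. Its level was 27.5 and 48.4 CPM in cluster 8 and 9.82 and 13.5 CPM in cluster 2. Cluster 12 of metastasis 1 shows 26.5 CPM from a single UMI.

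Tnfrsf4 had 5 UMIs in naive 1, 2 in naive 2, 101 in metastasis 1 and 209 in metastasis 2. The cluster 8 level was 73.5 CPM (50.3 to 104) in metastasis 1 and 148 CPM (113 to 190) in metastasis 2, and the cluster 2 level was 19.0 and 40.8 CPM. For Tnfrsf4 the 2 brains did not share an interval in cluster 8, with metastasis 2 the higher. Tnfrsf18 had 4 and 2 UMIs in the naive pair and 86 and 145 in the metastasis pair, and its level was 43.6 (26.3 to 68.1) and 123 CPM (91.9 to 162) in cluster 8 against 34.7 and 29.5 CPM in cluster 2. Metastasis 2 was again the higher in cluster 8, while in cluster 2 the brains overlapped. Clusters 2 and 8 held 78.0% of the Ctla4, 69.7% of the Tnfrsf4 and 82.7% of the Tnfrsf18 UMIs with metastases.

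Tnfrsf9, like the rare Tigit, had a share of its UMIs in the tumour-like clusters close to that of all UMIs. It had 15 UMIs in naive 1, 7 in naive 2, 752 in metastasis 1 and 1247 in metastasis 2. The tumour-like clusters held 92.4% of the 1999 UMIs with metastases and clusters 2 and 8 held 3.45%, against 90.1% and 4.53% of all UMIs. In CPM, Tnfrsf9 was present in nearly every cluster: 16.9 and 22.1 CPM in cluster 0, 15.4 and 17.4 in cluster 1, 19.0 and 26.8 in cluster 3, 15.7 in cluster 4 of both brains and 32.6 and 28.8 in cluster 5. The level was 25.2 and 38.7 CPM in cluster 8 and 11.1 and 10.9 CPM in cluster 2, so the immune clusters did not stand apart. Cluster 9, which held choroid plexus markers, was low at 4.90 and 4.24 CPM, and cluster 12 had 0 UMIs in both brains. Within the tumour-like clusters, cells with CD3 UMIs had 18.2 CPM of Tnfrsf9 (12 to 26.5, 120 cells) and cells without had 19.9 CPM (19.0 to 20.8, 8186 cells), so there the gene did not follow the CD3 genes. In naive brains 45.5% of the 22 Tnfrsf9 UMIs came from the cells in tumour-like clusters, which held 38.6% of all naive UMIs.

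**Figure D1:**
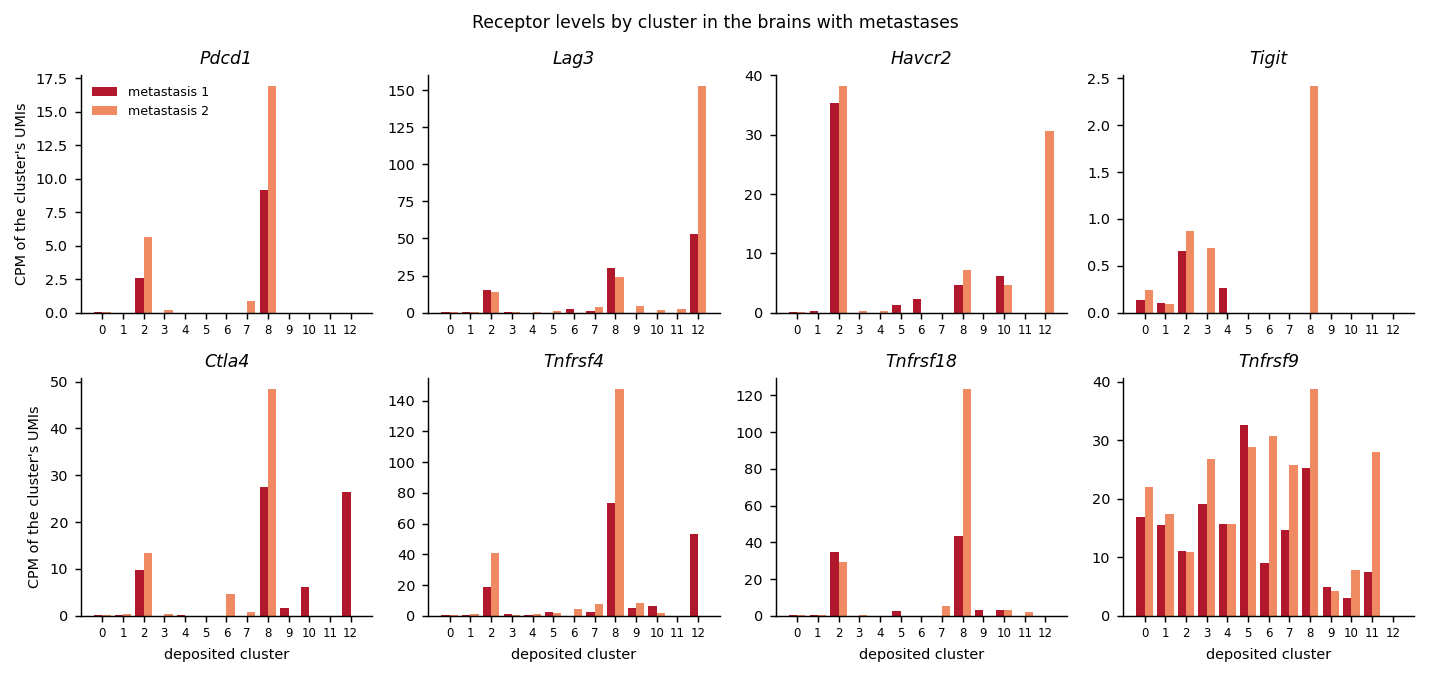
Level of each receptor, in CPM of the UMIs of the cluster (y axis), in the 13 deposited clusters (x axis), with 1 bar for each of the 2 brains with metastases. The axis differs by panel; Tnfrsf4 reaches 148 CPM in cluster 8 of metastasis 2, and Tnfrsf9 is present in nearly every cluster. The bars of cluster 12 rest on 41 cells.

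The next comparison asked whether the receptors follow the CD3 genes cell by cell. Within cluster 2 of the brains with metastases, Ctla4, Tnfrsf4, Tnfrsf18 and Tnfrsf9 were higher in cells with CD3 UMIs (88 cells of metastasis 1, 119 of metastasis 2) than in cells without (630 and 944), while Lag3 and Havcr2 did not pass the test. Median depth also differed, at 2982 and 2881 UMIs per cell with CD3 UMIs and 1438 and 1341.5 without. The test was edgeR's quasi-likelihood fit on summed counts with brain as a block, over 6978 genes. It called 2.67% of genes in either direction and 1.53% as higher in cells with CD3 UMIs. The receptors called higher were 4 of the 6 that passed the filter on low counts. A gene could pass that filter through the cells with CD3 UMIs alone, so a count out of the receptors that passed favours genes high there.

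The Tnfrsf4 level in cluster 2 was 76.7 CPM (24 UMIs) and 190 CPM (80 UMIs) in cells with CD3 UMIs of metastasis 1 and 2, and 4.12 and 7.45 CPM in cells without. The classes were far apart in both brains (log2 fold change 4.48, SE 0.32, adjusted p = 5.2e-40 by edgeR). Tnfrsf18 gave 144 and 102 CPM with CD3 UMIs and 6.59 and 13.3 CPM without (3.43, SE 0.30, adjusted p = 4.9e-27). Ctla4 gave 41.6 and 56.9 CPM with and 1.65 and 3.72 CPM without (4.03, SE 0.46, adjusted p = 9.8e-16). For all 3 genes no brain's value without CD3 UMIs reached any value with them.

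Tnfrsf9, the 4-1BB gene, changed less in cluster 2, from 6.59 and 5.32 CPM without CD3 UMIs to 28.8 and 35.6 CPM with them (log2 2.41, SE 0.46, adjusted p = 1.4e-05 by edgeR). Its call was lost with DESeq2 (adjusted p = 0.873). Lag3 stood at 16.0 and 21.3 CPM with CD3 UMIs and 14.8 and 12.2 CPM without (log2 0.46, SE 0.47, adjusted p = 0.847). Havcr2 stood at 28.8 and 21.3 CPM with and 37.1 and 42.0 CPM without (log2 -0.75, SE 0.37, adjusted p = 0.440), and 12.9% of its UMIs in clusters 2 and 8 were in cells with CD3 UMIs.

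Pdcd1 and Tigit did not pass the filter in cluster 2. Pdcd1 had 1 and 10 UMIs in cells with CD3 UMIs (3.20 and 23.7 CPM) and 3 and 3 in cells without (2.47 and 1.60 CPM). Over both brains the ratio of levels was 7.73 with a counting interval of 2.62 to 25.4, but metastasis 1 alone gave 1.29 (0.0246 to 16.1), so the ratio rests on metastasis 2. Tigit had 0 and 2 UMIs with CD3 UMIs and 1 and 0 without.

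The cells of cluster 2 with CD3 UMIs also carried macrophage signal. The summed monocyte and macrophage markers stood at 21402 and 15181 CPM with CD3 UMIs and 26189 and 16732 without. All 207 cells lay above the CD11b tag threshold of 12 tags, the 99th percentile of cluster 0. Of them, 203 held UMIs of Lyz2, the macrophage lysozyme gene. The summed T cell markers stood at 1253 and 1222 CPM against 76.6 and 58.0 CPM, with 12 of 12 detected in both brains. That list includes the 3 CD3 genes that define the classes, so part of this difference was fixed in advance. The CD3 genes gave 196 of the 392 and 253 of the 515 marker UMIs in cells with CD3 UMIs, and by definition none without. The doublet caller marked 6 of the 207 cells, and the part of paired droplets in these receptor levels was not tested beyond leaving those cells out, after which the same 4 receptors were called.

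In cluster 8, the lymphoid cluster, Ctla4, Tnfrsf4 and Tnfrsf18 were again higher in cells with CD3 UMIs (43 and 67 cells) than in cells without (141 and 175). Median depth ran the other way from cluster 2, at 926 and 786 UMIs with and 1153 and 996 without. The fit tested 3070 genes and called 3.36% of them in either direction and 1.37% as higher. Of the 4 receptors that passed the filter, 3 were called higher. Here too a gene could pass through the cells with CD3 UMIs alone, so this count is not support for the receptors as a group. The median log2 fold change of all genes was 0.02 here and 0.00 in cluster 2.

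The Tnfrsf4 level in cluster 8 was 264 CPM (26 UMIs) and 460 CPM (54 UMIs) with CD3 UMIs, and 17.8 and 23.7 CPM without (log2 4.03, SE 0.36, adjusted p = 2.2e-07 by edgeR). Ctla4 stood at 71.2 and 136 CPM with and 14.8 and 13.5 CPM without (2.75, SE 0.60, adjusted p = 0.0082), and the 4 UMIs of metastasis 2 without CD3 UMIs came from 1 cell. Tnfrsf18 stood at 71.2 and 298 CPM with and 35.6 and 54.1 CPM without (1.92, SE 0.39, adjusted p = 0.0048). The classes did not overlap for any of the 3, but the size for Tnfrsf18 depended on the brain: leaving out metastasis 2 gave 1.00 and leaving out metastasis 1 gave 2.46.

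Tnfrsf9 in cluster 8 stood at 71.2 and 51.1 CPM with CD3 UMIs and 11.9 and 33.8 CPM without, and did not pass (log2 1.36, SE 0.69, adjusted p = 0.409 by edgeR). Pdcd1 did not pass the filter, with 4 and 6 UMIs in cells with CD3 UMIs (40.7 and 51.1 CPM) and 0 and 1 UMI in the more numerous cells without. Its ratio of levels over both brains was 29.3, with a counting interval of 4.17 to 1273. Lag3 had 2 and 3 UMIs with CD3 UMIs (20.3 and 25.6 CPM) and 11 and 7 without (32.6 and 23.7 CPM), a ratio of 0.81 (0.24 to 2.28). Havcr2 had 0 and 1 UMI with and 2 and 2 without, and Tigit 1 UMI in all.

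DESeq2 called Tnfrsf4 in cluster 8, while Tnfrsf18 had an adjusted p of 0.999 and Ctla4 was given no adjusted p, which is not a lost call. Without called doublets, which removed many UMIs, 2 receptors passed the filter, Tnfrsf4 and Tnfrsf18, and both were called. The cells of cluster 8 with CD3 UMIs had summed T cell markers at 2521 and 3194 CPM against 169 and 149 CPM, and monocyte and macrophage markers at 2704 and 1831 CPM against 2393 and 2515 CPM. The CD3 genes that define the classes gave 125 of the 248 and 193 of the 375 T cell marker UMIs with CD3 UMIs, and by definition none without. NK cell markers were detected in both classes, at 1504 and 1644 CPM with CD3 UMIs and 1696 and 2512 CPM without. Genes of this sum went different ways, so it does not compare NK content. Tyrobp stood at 488 and 443 CPM with and 1100 and 1464 without, and also at 3643 and 3099 in cluster 2 cells without CD3 UMIs. Nkg7 stood at 600 and 877 CPM with and 181 and 199 without. Ncr1 had 1 and 0 UMIs with and 0 and 3 without. Dendritic cell markers were 163 and 8.52 CPM with and 362 and 260 CPM without.

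**Figure D2:**
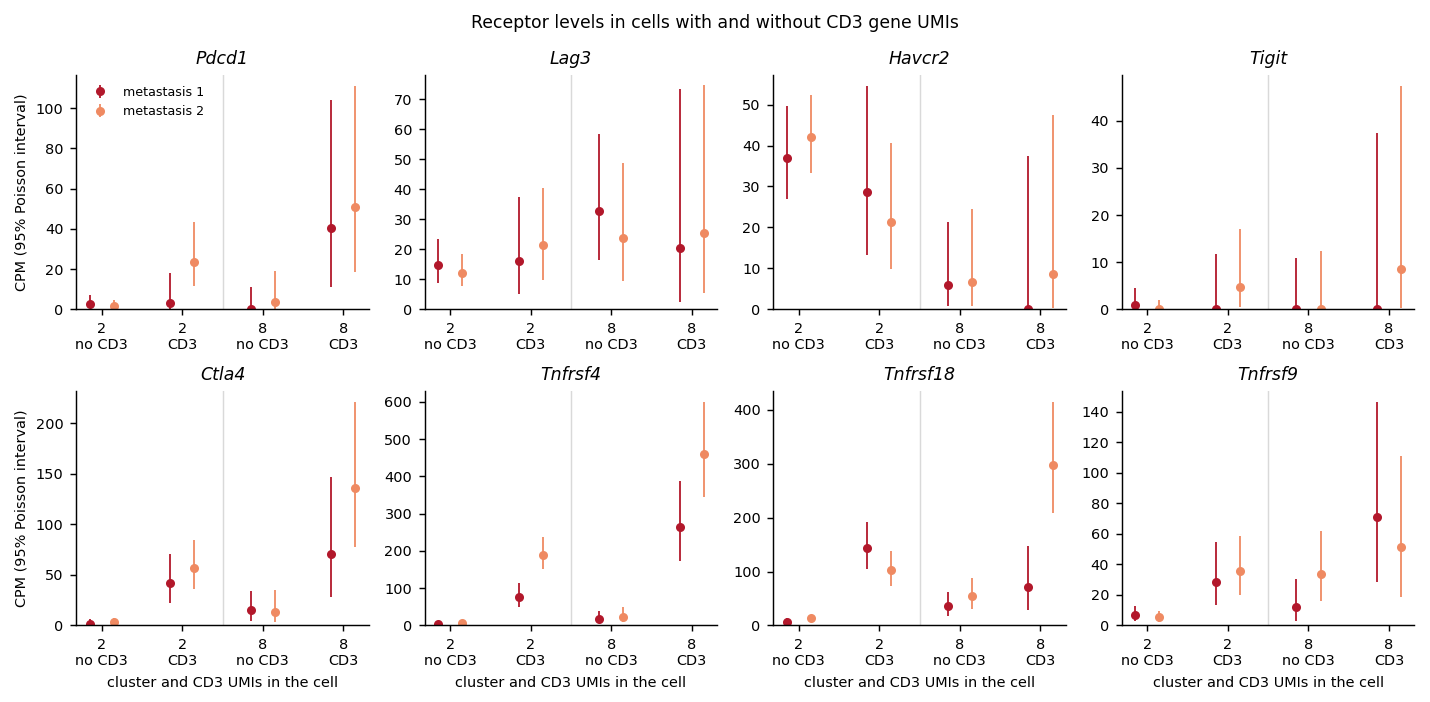
Receptor levels in CPM (y axis, with 95% Poisson intervals for counting error) in cells without and with CD3 gene UMIs of clusters 2 and 8 (x axis), with 1 point per brain with metastases. For Ctla4, Tnfrsf4 and Tnfrsf18 every point with CD3 UMIs lies above every point without in the same cluster, while Lag3 overlaps and Havcr2 is lower in both brains of cluster 2 (28.8 and 21.3 against 37.1 and 42.0 CPM).

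Counted as cells and not as UMIs, the pattern was alike. In cluster 2 a Tnfrsf4 UMI was found in 19.8% of cells with CD3 UMIs and 0.76% of cells without, and at an equal depth of 1000 UMIs per cell in 10.6% of 188 and 0.47% of 1075 cells. In cluster 8 the Tnfrsf4 shares were 21.8% and 3.16%, and 23.9% of 46 and 1.73% of 173 at equal depth. Choroid plexus cluster 9, which should lack the gene, gave 3.09% and 4.17%, in cells with median depths of 5371 and 5337.5 UMIs against 1153 and 996 in the cluster 8 cells without CD3 UMIs. The shares of those 2 cell kinds are therefore not at matched depth. Per UMI, Tnfrsf4 stood at 6.46 CPM in cluster 9 over both brains.

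A Tnfrsf18 UMI was found in 30.0% of cells with CD3 UMIs and 1.97% without in cluster 2 (12.2% and 1.3% at equal depth), and in 27.3% and 7.91% in cluster 8 (21.7% and 6.36%). Its share in cluster 9 was 2.06% and 0%. For Ctla4 the shares were 12.6% and 0.57% in cluster 2 (4.26% and 0.28% at equal depth) and 11.8% and 1.27% in cluster 8 (13% and 0.58%), against 1.03% and 0% in cluster 9.

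Between the 2 clusters, the levels of Tnfrsf4, Ctla4 and Pdcd1 in cells with CD3 UMIs were lower in cluster 2 than in cluster 8. The ratio of levels, cluster 2 over 8, was 0.38 for Tnfrsf4 (counting interval 0.28 to 0.52), 0.47 for Ctla4 (0.27 to 0.83), 0.32 for Pdcd1 (0.12 to 0.85) and 0.54 for Tnfrsf9 (0.27 to 1.16). The intervals of Lag3 (0.82, 0.28 to 2.92) and of Havcr2 (5.29, 0.835 to 220) held 1 as well. For Tnfrsf18 the ratio over both brains was 0.62 (0.42 to 0.91), but the brains went opposite ways, with 144 CPM in cluster 2 against 71.2 in cluster 8 in metastasis 1 and 102 against 298 in metastasis 2, so that value rests on metastasis 2. Nearly all cluster 2 cells of this kind (203 of 207 with Lyz2 UMIs) also carried macrophage RNA, which enters the denominator, so these ratios compare shares of RNA and not molecules per T cell. In both clusters most UMIs of Ctla4 (76.9%), Tnfrsf4 (85.2%) and Tnfrsf18 (68.1%) lay in cells with CD3 UMIs. The difference of the CD3 effect between the clusters, an interaction test over 5077 genes, called 1.77% of genes and none of the 6 receptors tested. The nearest was Tnfrsf18, at 1.55 more on the log2 scale in cluster 2 (SE 0.52, adjusted p = 0.124 by edgeR). The interaction test took the 2 clusters of a brain as separate sums, so its p-values overstate the number of independent suspensions.

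The surface tags split the cells with CD3 UMIs further. CD4 marks helper and regulatory T cells, and some macrophages carry it too. Cells above the CD4 tag threshold (more than 4 tags, the 99th percentile of the tumour-like cluster 0) were compared with the others within each brain and cluster, a comparison added after the data were seen. The comparison tested 1599 genes and called 0.563% of them, with 0.313% of the tested genes higher in CD4 tag high cells. Both receptors that passed the filter, Tnfrsf4 and Tnfrsf18, were called higher. A gene could pass it through the tag high cells alone. Median depth was 2837.5 UMIs in tag high and 1646 in tag low cells. The same percentile of the choroid plexus cluster 9 was higher, at 12.1 tags for CD4, 6 for CD25 and 89.0 for CD11b. Results at those stricter thresholds are not given here.

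Tnfrsf4 was higher in CD4 tag high cells in every one of the 4 pairs. These pairs come from 2 brains only, and the fit took the 2 clusters of a brain as separate pairs. Its p-values therefore overstate the number of independent suspensions. In cluster 2 it stood at 140 against 18.4 CPM in metastasis 1 and 302 against 23.6 CPM in metastasis 2. In cluster 8 it stood at 526 against 19.7 CPM and 829 against 143 CPM. The log2 fold change was 3.15 (SE 0.33, adjusted p = 4.6e-07 by edgeR), and the call held in all 6 alternatives, with values from 2.97 to 3.54.

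Tnfrsf18 followed with a smaller difference. It stood at 193 against 98.2 CPM and 147 against 35.4 CPM in cluster 2, and at 126 against 19.7 CPM and 442 against 174 CPM in cluster 8 (log2 1.45, SE 0.31, adjusted p = 0.0220 by edgeR). It was higher in tag high cells in 4 of 4 pairs, but the call was lost without metastasis 1 (adjusted p = 0.0948), without metastasis 2 (0.666), with DESeq2 (1.00) and without called doublets (0.170). Ctla4 did not pass the filter. Its UMIs in tag high against tag low cells were 10 and 3, and 20 and 4, in cluster 2, and 7 and 0, and 10 and 6, in cluster 8.

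**Figure D3:**
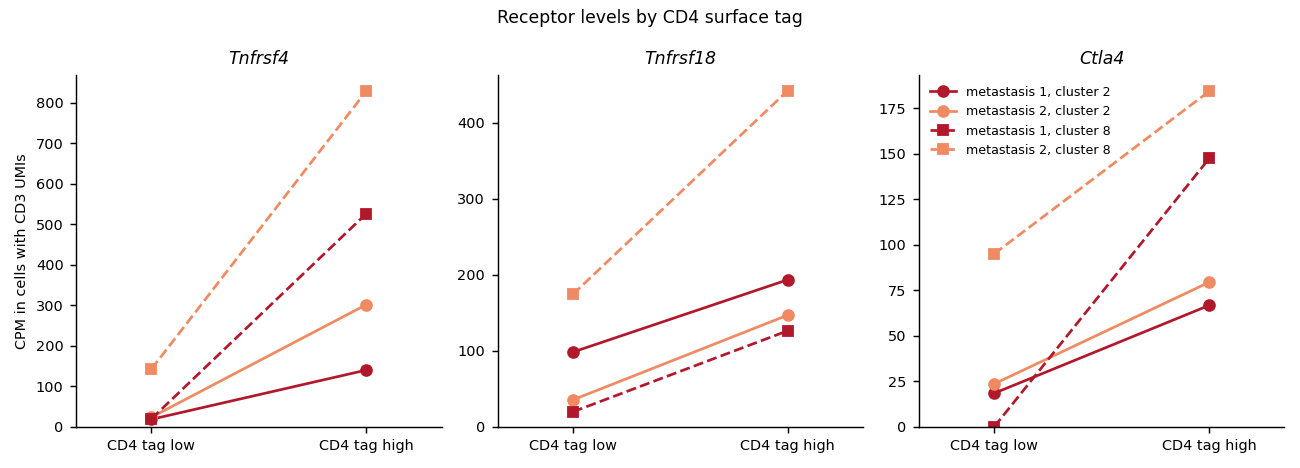
Levels of Tnfrsf4, Tnfrsf18 and Ctla4 in CPM (y axis) in cells with CD3 UMIs that were low or high for the CD4 surface tag (x axis). Each line joins the 2 classes of 1 brain and cluster, and the lines come from 2 brains only. All 12 lines rise from low to high.

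CD25, the interleukin 2 receptor alpha chain that marks regulatory and activated T cells, was found with the same receptors. Among cells of cluster 8 with CD3 UMIs, 15 of 24 cells with a Tnfrsf4 UMI (62.5%, exact interval 40.6 to 81.2) lay above the CD25 tag threshold of 3 tags, against 4 of 86 without (4.65%). For the CD4 tag the numbers were 19 of 24 (79.2%, 57.8 to 92.9) and 21 of 86 (24.4%). The cells with a Tnfrsf4 UMI were deeper, with a median of 1774 UMIs against 754, and the part of depth in these shares was not tested. In cluster 2, 17 of 41 cells with a Tnfrsf4 UMI (41.5%) and 18 of 166 without (10.8%) were above the CD25 threshold, and 36 of 41 (87.8%) and 74 of 166 (44.6%) above the CD4 threshold. The CD25 share in cluster 8 was 43.3% of cells with a Tnfrsf18 UMI against 7.50% without, and 53.8% of cells with a Ctla4 UMI against 12.4% without. The CD3e stain was weak, with 21.7% of cluster 2 and 10.9% of cluster 8 cells with CD3 UMIs above its threshold.

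**Figure D4:**
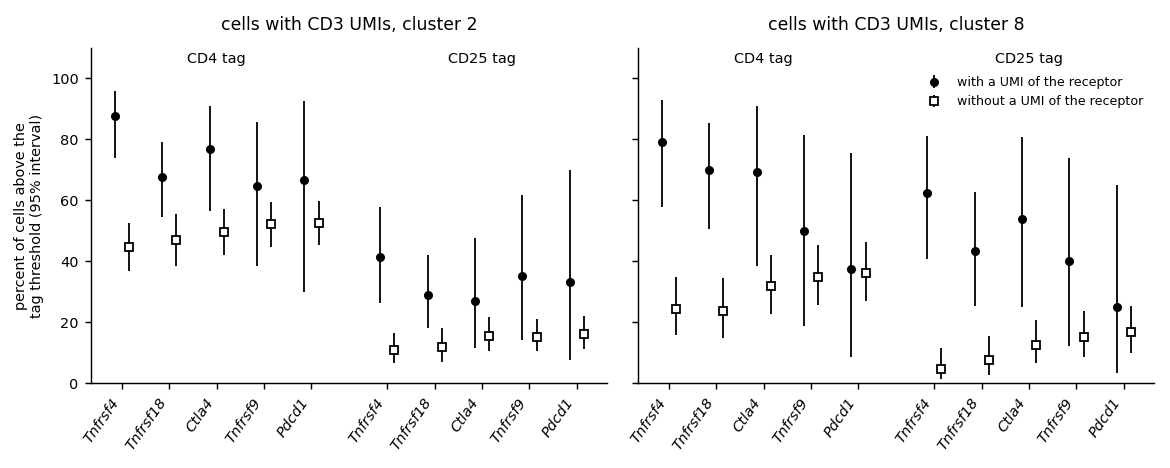
Percent of cells with CD3 UMIs above the CD4 and CD25 tag thresholds (y axis, with exact 95% intervals) in clusters 2 and 8, for cells with (filled) and without (open) a UMI of each of 5 receptors (x axis), both brains with metastases together. For Tnfrsf4 the intervals with and without a UMI are apart in each cluster and for each tag. Those for Pdcd1 overlap throughout, but are wide, since only 9 cells of cluster 2 and 8 of cluster 8 held a Pdcd1 UMI. The intervals cover counting error and not the spread between brains.

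Some cells held more than 1 of the receptors. Of the 207 cells with CD3 UMIs in cluster 2, 111 (53.6%) held a UMI of at least 1 of the 8 receptors and 44 (21.3%) of 2 or more, so most of the 111 held only 1. In cluster 8 these were 49 (44.5%) and 27 (24.5%) of 110. Tnfrsf4 and Tnfrsf18 were found together in 18 cells of cluster 8, which is 75.0% of the 24 cells with Tnfrsf4 and 60.0% of the 30 with Tnfrsf18. In cluster 2 they shared 23 cells, 56.1% of 41 and 37.1% of 62. Ctla4 and Tnfrsf4 shared 9 cells in cluster 8 (69.2% of the 13 with Ctla4) and 12 in cluster 2 (46.2% of 26). Some pairs shared no cell in 1 cluster but did in the other. In cluster 2, none of the 9 cells with Pdcd1 or the 18 with Havcr2 held Ctla4, which 26 of all 207 cells held. In cluster 8, 3 of the 8 cells with Pdcd1 and the 1 cell with Havcr2 held Ctla4. None of those 8 held Tnfrsf9, which 10 of all 110 cells held, while in cluster 2 it was found in 4 of 9. With so few cells, such absences do not show that a pair excludes each other. Deeper cells hold more of every gene, so these shares describe detection and were not tested.

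Lineage by RNA could be read in few cells. Among cluster 8 cells with CD3 UMIs, 17 held Cd8a or Cd8b1 and no Cd4 UMIs and 3 held Cd4 only, which was too few for the planned test. Those 17 cells, with a median of 815 UMIs, held 4 of the 5 Lag3 and 3 of the 10 Pdcd1 UMIs of the CD3 class, but 1 of its 80 Tnfrsf4 UMIs. In cluster 2, 29 cells were of the Cd8 kind and held 5 of 14 Lag3, 4 of 11 Pdcd1 and 9 of 104 Tnfrsf4 UMIs, while 13 cells of the Cd4 kind held 0, 0 and 6. Foxp3, the transcription factor that defines regulatory T cells, had UMIs in 5 cells of cluster 2 and 2 of cluster 8, and those 2 cells held 9 Tnfrsf4 UMIs, 6 of them in a cell of 14128 UMIs.

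The comparison of naive brains with brains bearing metastases could be tested in few clusters. Clusters 6, 7, 9 and 11 had at least 20 cells in each of the 4 brains, and none of the 8 receptors passed the filter there, where 8.17%, 31.2%, 4.35% and 16.0% of tested genes were called. Cluster 8 was fitted after the data were seen, with 18 cells in each naive brain and 184 and 242 with metastases. It called 0.474% of 3373 genes and none of the 3 receptors tested (edgeR, with 490 genes and 1 receptor, Tnfrsf4, at an unadjusted p under 0.05).

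Tnfrsf4 had 0 UMIs in cluster 8 of both naive brains against 73.5 and 148 CPM with metastases. Against the 3 counts over the naive group that a count of 0 allows, the pooled level with metastases was at least 1.27-fold higher. That bound pools the brains of each condition and rests on the brain at 148 CPM. The brain at 73.5 CPM alone lies below the pooled naive limit, so the bound does not hold for each brain. The fit did not call Tnfrsf4 (adjusted p = 0.324 by edgeR). Tnfrsf18 stood at 0 and 53.2 CPM in the naive brains and 43.6 and 123 CPM with metastases (adjusted p = 0.691). Ctla4 stood at 62.2 and 0 CPM and 27.5 and 48.4 CPM (adjusted p = 0.840). Each nonzero naive value is a single UMI, so the naive and metastasis ranges overlap for both. Cells with CD3 UMIs in cluster 8 numbered 9 and 1 in the naive brains, too few for a test. They held 1 UMI each of Pdcd1, Lag3 and Ctla4, and their 0 UMIs of Tnfrsf4 allow a level of up to 399 CPM, which is above the 371 CPM of the same cells with metastases.

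Lag3 in cluster 12, the microglial cluster, was lower with metastases in value but was not called. The cluster held 60 cells of naive 1, 33 of naive 2, 26 of metastasis 1 and 15 of metastasis 2. The Lag3 level was 306 CPM (33 UMIs, interval 211 to 429.5) and 377 CPM (31 UMIs, 256 to 534) in naive brains, and 53.1 CPM (2 UMIs, 6.42 to 192) and 153 CPM (5 UMIs, 49.6 to 357) with metastases. The brains of the 2 conditions did not overlap, although the interval of metastasis 2 reached those of both naive brains. The fit, also added after the data were seen, called 5.46% of 989 genes, and Lag3, the 1 receptor tested, gave log2 -1.92 (SE 0.56, adjusted p = 0.0536 by edgeR). Over the alternatives the adjusted p ran from 0.00771 without metastasis 2 to 0.655 without naive 2, and the log2 fold change from -2.76 to -1.36.

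The markers of cluster 12 were lower with metastases as well. Over all cells of the cluster, the brain with the higher Lag3 level had the lower marker sum in each condition. The Lag3 intervals of the 2 brains of a condition overlapped, so their order is not settled. All 11 summed microglia markers stood at 14607 CPM in naive 1, 13166 in naive 2, 7321 in metastasis 1 and 4035 in metastasis 2, and Tmem119, a gene of resting microglia, at 1863 and 1530 against 424 and 336 CPM. Naive 2 also held neutrophil RNA in this cluster, with S100a8 at 8757 CPM against 213 in naive 1. In cells with more microglia than neutrophil marker UMIs (56, 26, 26 and 15 cells), Lag3 stood at 313 and 449 CPM in naive brains. With metastases it stood at the same 53.1 and 153 CPM. The marker sum of those cells was 14782 CPM in naive 1 and 15753 in naive 2, so there naive 2 was the higher for both. The part of cell makeup in the Lag3 difference was not tested. Havcr2 had 5 and 2 UMIs in naive cluster 12 and 0 and 1 with metastases (0 and 30.6 CPM).

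**Figure D5:**
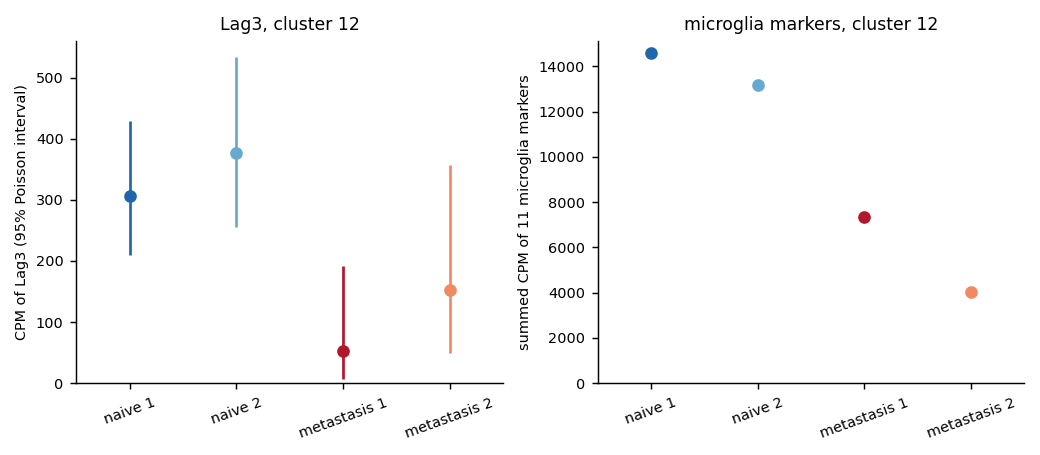
Lag3 level in CPM (left, with 95% Poisson intervals) and summed level of 11 microglia markers (right) in cluster 12 of each of the 4 brains (x axis). Lag3 is 306 and 377 CPM in the naive brains and 53.1 and 153 CPM with metastases, and the marker sum is ordered naive above metastasis as well.

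The genes whose levels ran most like each receptor over the 25 cluster sums of the 2 brains with metastases were taken by Pearson correlation of log2(CPM + 20). A sum needed 20 cells, which left out cluster 12 of metastasis 2 (15 cells), where Lag3 stood at 153 CPM. The Lag3 correlations therefore lack that microglial sum, and Lag3 was not called in the CD3 test of cluster 2. Ctla4 ran with Icos (r = 0.98), a costimulatory receptor of activated T cells, with Tbc1d10c (0.98) and with Tnfrsf4 (0.98). Tnfrsf4 in turn ran with Icos (0.98), Clec10a (0.98) and Ctla4 (0.98), and Tnfrsf18 with Cd8b1 (0.99), Trac (0.98) and Cd28 (0.98). Pdcd1 ran with Cd8b1, Ccr7 and P2ry10 (0.98 each) and Lag3 with Bcl11b (0.98), Jaml (0.98) and Cd2 (0.97). Havcr2 instead ran with Igsf6 (0.99), Aoah (0.98) and Rab32 (0.98). For Tnfrsf9 the best were lower, Lrrc45 (0.84), Dedd2 (0.84) and Fancl (0.83), and for Tigit Iglc2 (0.93), Mmp12 (0.89) and Zmynd15 (0.87). A like gene needed 50 UMIs, while Pdcd1 (36 UMIs) and Tigit (25 UMIs) held fewer, so their correlations are the least certain. Sums of a brain share a library and clusters 2 and 8 carry most of the variation, so these correlations are descriptions.

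Other genes of these pathways were followed as lists over the same 2 CD3 comparisons. Over all tested genes, 1.53% were called higher and 2.67% in either direction in cluster 2, and 1.37% and 3.36% in cluster 8. The lists are short, so a count of 0 is no result about a list. List genes met the same filter, which a gene could pass through the cells with CD3 UMIs alone. Of the other costimulatory receptors, 4 of 6 tested were higher in cells with CD3 UMIs of cluster 2 and none lower, with a list median of log2 2.13. They were Icos (3.77), the costimulators Cd28 (2.92) and Cd27 (1.34) and the adhesion receptor Cd2 (2.92). In cluster 8 all 3 tested were higher: Icos (4.71), Cd28 (3.26) and Cd2 (3.09). Of the other inhibitory receptors, 1 of 6 tested was higher in cluster 2, Cd5 (2.96), which dampens antigen receptor signalling, and none was tested in cluster 8. None of the ligands of the 8 receptors was called, of 8 tested in cluster 2 and 3 in cluster 8 (edgeR at an adjusted p of 0.05), with list medians of 0.00 and -0.92. That is near the shares over all genes.

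Of the regulatory T cell genes, 2 of 5 tested were higher in cluster 2, Ikzf2 (3.26), which encodes Helios, and Il2rb (2.35), an interleukin 2 receptor chain. The median of the 5 was log2 -0.09. In cluster 8, 3 of 6 were higher (median 2.32), Ikzf2 (4.89), the folate receptor 4 gene Izumo1r (4.82) and Il2rb (2.18), and none was lower. Ikzf2 stood at 244 and 273 CPM with CD3 UMIs of cluster 8 and 8.90 and 6.76 CPM without. Of the exhaustion and activation genes, 2 of 8 were higher in cluster 2, the cytotoxic protease Gzmb (2.39) and the chemokine receptor Cxcr6 (3.55). The median of the 8 was 0.50. In cluster 8, 0 of 4 were higher by edgeR and Id2 was lower (-1.24), with a median of -0.52. Gzmb there stood at 264 and 221 CPM with CD3 UMIs.

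Of the receptor signalling genes, 2 of 11 tested were higher in cluster 2, Sh2d1a (3.04) and the phosphatase Ptpn22 (1.17), and 1 of 5 in cluster 8, Ptpn22 (1.31). Of the naive and memory genes, Il7r (1.20) and Satb1 (1.65) were higher in cluster 2, among 6 tested, while in cluster 8 Ccr7 was lower (-2.31) among 4. Between CD4 tag high and low cells none of the 13 genes of these lists that were tested was called by edgeR, where 0.563% of all tested genes were called.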

How the data were processed

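RNA UMI counts and antibody tag counts were deposited per cell, as raw counts per the file headers and their whole-number values, with a per-cell table in which the authors deposited the hashing call, the cluster number and the percent of mitochondrial UMIs. Per the submitters' processing notes, Cell Ranger 3.0.2 and Seurat 3.0.1 were used with build mm10, at settings that the sources used here leave out. The design text speaks of more pooled brains than the 4 hashing antibodies analysed here. The members and lists were chosen with earlier results of these data known. Counts were summed per brain, cluster and class and tested with edgeR 4.0.16 (R 4.3.3, TMM, filterByExpr, quasi-likelihood, Benjamini-Hochberg at 0.05 over all genes tested), with DESeq2 1.42.0 as an alternative. Classes needed 20 cells per brain (15 in the added fits of clusters 8 and 12, and 10 for the CD4 tag). CD3 genes were left out of the CD3 tests. SE is the standard error of a log2 fold change. Levels are CPM of the cluster or class with exact 95% Poisson intervals, and shares have exact binomial intervals, for counting error only. Shares at equal depth thin each cell to 1000 UMIs. Scrublet in scanpy 1.11.5 called doublets. Depth is in UMIs per brain, given in the results. No correction for free RNA was made. Genes named beyond the 8 receptors were the 3 most like each, list genes called in a comparison and the list genes with the 3 highest levels. The tests were checked on simulated data.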

Additional observations from a re-analysis of the deposited data

How the results depend on the processing

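Alternatives changed scaling, the low-count filter, the tool, the brain block, the CD3 definition, the brains and called doublets. No called receptor changed direction. The number of receptors called in the CD3 comparison was 4 in cluster 2 and 1 with the CD3 surface tag in place of CD3 UMIs, where Tnfrsf18 stayed (log2 2.64, edgeR adjusted p = 0.0254) and Tnfrsf4 (adjusted p = 0.107), Ctla4 (0.271) and Tnfrsf9 (0.461) did not. It was 3 in cluster 8 and 1 with DESeq2, which gave Ctla4 no adjusted p, and without the brain block Tnfrsf18 had an adjusted p of 0.0978. For the CD4 tag it was 2, and 1 with DESeq2, without called doublets or without either brain. For cluster 12 it was 0, and 1 with no filter (Lag3 log2 -2.13, adjusted p = 0.0233) and without metastasis 2 (-2.76); leaving out brains gave 0 to 1 receptors and -2.76 to -1.36. The genes called in cluster 2 numbered 186, against 43 with DESeq2, 49 with no brain block, 110 with at least 2 CD3 UMIs against none and 7 with the CD3 surface tag. In cluster 8 they numbered 103, against 40 with DESeq2, 67 with no block and 195 without called doublets. For the CD4 tag they numbered 9, against 22 with no filter, 2 with DESeq2, 2 without called doublets, and 6 to 11 without a brain. DESeq2 gave no adjusted p for Lag3 in cluster 12 or for the receptors in naive against metastasis cluster 8. The causes were not tested. Leaving out a brain in the CD3 comparisons leaves no residual degrees of freedom, so those are values without a test, and the interaction could not be refitted that way. The tests of Cd4 against Cd8 cells and of naive against metastasis cells with CD3 UMIs were not run, for want of cells, nor was the CD3 tag setting in cluster 8. No paired analysis was possible because the hashing numbers do not pair naive with metastasis brains. Low counts limit Pdcd1, Tigit and every naive value.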
